A study of Mus musculus with 64 samples.

Results

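The genes described here are the 7 members of the natriuretic peptide system that the gene table of this heart study holds among its 16913 genes: the peptide genes Nppa and Nppb, the receptor genes Npr1, Npr2 and Npr3, and the processing enzymes Corin and Furin. They were chosen by name. The study profiled hearts of C57BL/6J mice by bulk RNA sequencing of total RNA depleted of ribosomal RNA, in 64 libraries. TG mice carry cTnT-delta160E, a variant of cardiac troponin T used as a model of hypertrophic cardiomyopathy, and nTG mice do not. Mice either did not exercise (sedentary) or ran high-intensity interval training (HIIT) on a treadmill for 6 weeks: 3 weekly sessions, each lasting 31 minutes, alternated 4 fast intervals (85% of a mean speed reached beforehand in an exercise test) with 4 slow ones (50%). Among males there were 9 TG and 7 nTG sedentary mice and 8 TG and 8 nTG trained mice. Among females there were 8 TG and 8 nTG sedentary mice and 6 TG and 10 nTG trained mice. The labels number these as biological replicates. The age of the mice, the promoter of the transgene, the number of transgenic lines and the part of the heart taken are not given in the sources used here.

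Atrial natriuretic peptide (ANP, from Nppa) and B-type natriuretic peptide (BNP, from Nppb) are hormones that cardiac muscle cells release when the wall is stretched. They are made as longer precursors, which the membrane protease corin and the secretory-pathway protease furin cut. Both peptides act on the receptor NPR-A (Npr1), a guanylate cyclase that makes cyclic GMP, and lower blood volume and pressure. NPR-B (Npr2) is the guanylate cyclase for C-type natriuretic peptide, and NPR-C (Npr3) mainly removes the peptides. In the adult heart Nppa is strongest in the atria, and both peptide genes are part of the foetal programme that ventricles take up again under load.

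Nppb and Nppa lie next to each other on the forward strand of chromosome 4 (GRCm38, GENCODE M21), Nppb at chr4:147985788-147987205 and Nppa at chr4:148000722-148002079. The sequences before their starts are shown because the 2 genes are neighbours that share known regulators. They are taken from RefSeq (GRCm38.p6), which held all 7 members. The first is the 250 bases before the RefSeq start of Nppa, chr4:148000472-148000721. The second is a 27-base stretch before the RefSeq start of Nppb, chr4:147985795-147985821, which GENCODE M21 places inside the first exon because it sets the start 112 bases further upstream. Capitals mark GATAA or its complement TTATC (the GATA factor motif), GGAATG (the M-CAT motif) and TATAAA (the TATA box).
Nppa: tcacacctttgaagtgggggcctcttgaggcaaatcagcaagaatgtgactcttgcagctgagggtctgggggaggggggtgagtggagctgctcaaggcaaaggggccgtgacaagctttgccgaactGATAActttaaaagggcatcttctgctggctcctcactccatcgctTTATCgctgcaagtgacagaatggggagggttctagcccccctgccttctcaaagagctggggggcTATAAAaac
Nppb: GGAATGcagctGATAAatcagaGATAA
The 250 bases before each gene held 2 GATAA matches, counted on both strands, for Nppa and 2 for Nppb, while the windows of Npr1, Npr2, Npr3, Corin and Furin held none. Of all 32851 RefSeq promoter windows of 250 bases, 22.6% held GATAA on either strand, 12.6% held GGAATG on either strand and 7.59% held TATAAA on the gene's own strand. Searches of both strands for the CArG box and for TGANTCA (the AP-1 motif) found none in any member's window, against 1.47% and 6.75% of all windows. TATAAA was in the Nppa and Nppb windows and in 1 of 2 Furin windows, chr7:80405437-80405686. AAGTG, the core of the NKX2-5 motif, searched on both strands, was in the Nppa window, in the same Furin window and in 40.7% of all windows. The second Furin window, chr7:80402813-80403062, held neither. These matches describe letters, not binding.

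The columns of the gene table did not follow the library names. Each library's column in the lncRNA table was therefore paired with the gene column that correlated best with it over 389 autosomal transcripts present in both tables. The pairing was one to one and mutual for 64 of 64 libraries, with r between 0.599 and 0.863 against at most 0.404 for the next best column. After pairing, 0 libraries contradicted their labelled sex, against 32 by column name. Tnnt2, which covers the transgene and the mouse's own gene together, was at 6903 to 12001 CPM (counts scaled to a common library total) in TG and at 2665 to 3428 CPM in nTG libraries. The libraries held 34.6 M (lowest) to 67.1 M (highest) gene counts, and every member had at least 861 counts in every library. Summed ventricular muscle markers (7 of 7 in the table) were at 46773 to 68094 CPM, and none of 5 skeletal muscle markers is in the table. Values below are CPM scaled by TMM (trimmed mean of M values), and changes are log2 fold changes ± SE from edgeR's quasi-likelihood test, called at a Benjamini-Hochberg adjusted p under 0.05 over all genes.

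Per kilobase of exon, the peptide genes were the most abundant members. The median over the 64 libraries was 95.7 CPM per kb for Nppb and 84.1 for Nppa, followed by Corin at 40.7, Furin at 23.2, Npr2 at 16.5, Npr1 at 6.68 and Npr3 at 3.35. Nppa was also the most variable: its highest library was 29.3 times its lowest, against 5.22 times for Nppb and between 1.39 times (Npr2) and 2.15 times (Npr3) for the other 5 members.

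Nppa was higher in TG than in nTG hearts when the 4 strata of sex and activity were averaged, by 0.91 ± 0.22 (1.88-fold, edgeR adjusted p = 0.000734). In none of the 4 strata alone was it called by edgeR. Among sedentary males, Nppa ranged from 28.2 to 363 CPM (median 55.5) in nTG and from 33.5 to 288 CPM (median 174) in TG hearts. Of the 9 TG libraries 7 lay above the nTG median. The ranges overlapped because 1 nTG library stood at 363 CPM, where the other 6 were at 28.2 to 63.3 CPM. TG libraries at 33.5 and 50.8 CPM also lay within the range of those 6, and that at 69.8 CPM lay above it. These 3 TG libraries had the lowest Nppb of their group. The difference was 0.73 ± 0.45 and was not called (edgeR adjusted p = 0.260). Without the nTG library at 363 CPM (replicate 5) it was 1.66 (edgeR adjusted p = 0.00388).

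Among trained males, Nppa was at 29.3 to 126 CPM (median 70.6) in nTG and at 51.6 to 472 CPM (median 86.5) in TG hearts. One TG library (replicate 4) held the highest value of the study, and the other 7 TG libraries, at 51.6 to 119 CPM, lay within the nTG range. The difference was 0.76 ± 0.44 (edgeR adjusted p = 0.271). Among sedentary females the range was 16.1 to 128 CPM (median 61.0) in nTG and 33.0 to 204 CPM (median 131) in TG hearts, a difference of 1.15 ± 0.45 (edgeR adjusted p = 0.14). Here 7 of 8 TG libraries were above the nTG median and 4 were above every nTG library. Among trained females, nTG hearts were at 33.5 to 140 CPM (median 55.9) and TG hearts at 86.1 to 198 CPM (median 117), a difference of 0.99 ± 0.45 (edgeR adjusted p = 0.125). All 6 TG libraries exceeded the nTG median. With limma and sample quality weights the difference was called in sedentary males (1.09, limma adjusted p = 0.0316), sedentary females (1.61, 0.00527) and trained females (1.09, 0.0319). In the order of group medians the 4 TG groups came first, led by sedentary males, and every neighbouring pair of groups overlapped.

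**Figure D1:**
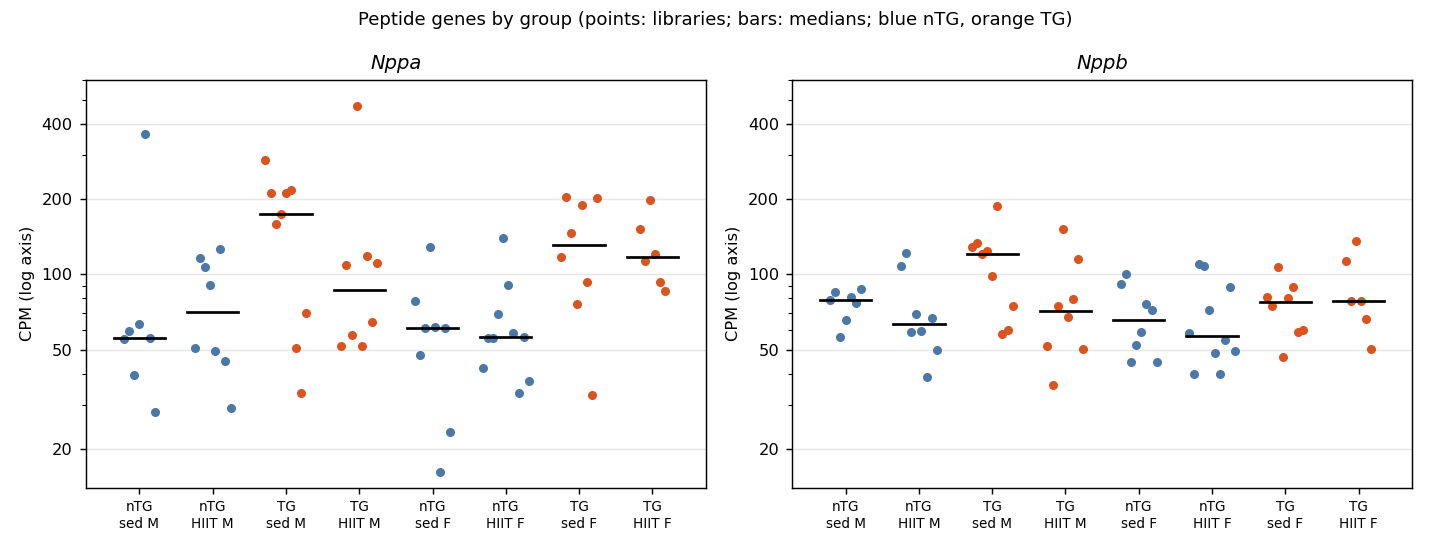
Nppa (left) and Nppb (right) in CPM on log axes, by group (nTG blue, TG orange; sed, sedentary; HIIT, trained; M, male; F, female); each point is 1 library and each bar a group median. Single libraries at 363 CPM (sedentary nTG males) and 472 CPM (trained TG males) stand above the rest of their groups for Nppa but not to the same degree for Nppb.

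Atrial muscle markers moved with Nppa from library to library. Of 8 markers listed, 7 were in the table, and their summed level was 74.7 to 473 CPM over the 64 libraries. Myl7, the atrial regulatory light chain, was at 0 to 59.5 CPM and Myl4, the atrial essential light chain, at 1.25 to 164 CPM. Sln (sarcolipin), at 0 to 15.2 CPM, had at most 3 counts in 11 libraries. The 2 libraries with the highest Nppa were also the 2 with the highest summed markers, 473 CPM for the sedentary nTG male and 396 CPM for the trained TG male. Within groups, Nppa and the summed markers correlated at r = 0.63 over the 64 libraries, at 0.55 in the 31 TG and at 0.72 in the 33 nTG libraries. For Nppb the r over the 64 libraries was -0.04. These are descriptions across libraries that share one count total. By group the summed markers were 101 to 473 CPM (median 154) in sedentary nTG males and 74.7 to 217 CPM (median 103) in sedentary TG males, and 104 to 396 CPM (median 147) in trained TG males. Kcnj3 and Stard10 of this list were themselves called lower in TG hearts over the strata, by 0.40 and 0.16, and the remaining 5 (Myl7, Myl4, Sln, Mybphl and Dkk3) were not called. The median sum of these 5 was lower in TG than in nTG males, at 31.1 against 52.2 CPM in sedentary and 52.9 against 78.9 CPM in trained hearts. In females it was higher in TG hearts, at 50.5 against 39.9 CPM in sedentary and 54.8 against 27.8 CPM in trained hearts.

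**Figure D2:**
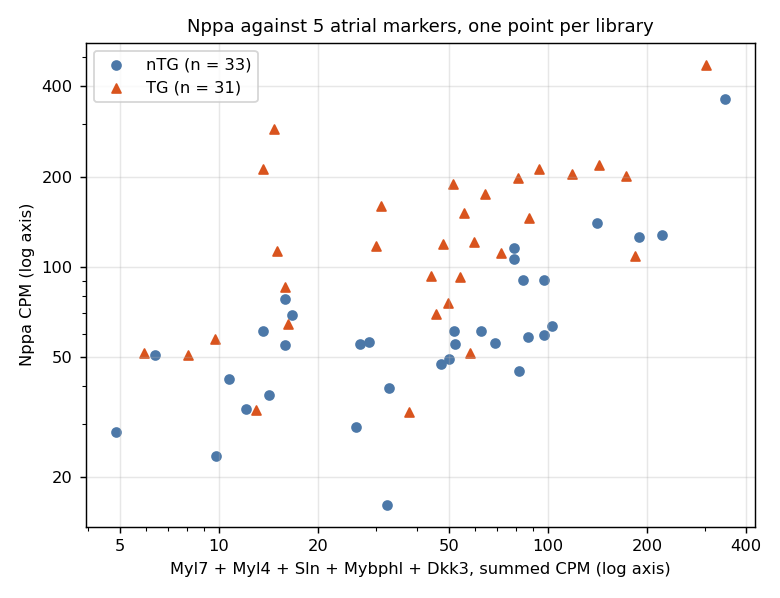
Nppa in CPM against the summed CPM of the 5 atrial markers not called between genotypes, both on log axes, with 1 point per library (nTG circles, n = 33; TG triangles, n = 31). The libraries at 363 and 472 CPM of Nppa lie at the far right, and at like marker levels many TG points lie above the nTG points.

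Nppa was refitted with these markers in the model and without the 2 libraries highest in them, both chosen after the data had been seen. The mean over the strata stayed called: it was 0.97 ± 0.18 without the 2 libraries (edgeR adjusted p = 1.36e-05), 1.23 ± 0.17 with the log2 sum of all 7 markers as a covariate (edgeR adjusted p = 3.53e-08) and 0.95 ± 0.17 with the sum of the 5 markers (edgeR adjusted p = 3.42e-06). In sedentary males the difference was called in all 3 fits, at 1.66, 1.94 and 1.35. In trained males it was called in none of them, at 0.07, 0.60 and 0.66. In trained females it was called in all 3, at 1.01, 1.27 and 0.96. In sedentary females it was called at 1.15 and 1.09, and with the 5 markers it was 0.82 and not called (edgeR adjusted p = 0.182).

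**Figure D3:**
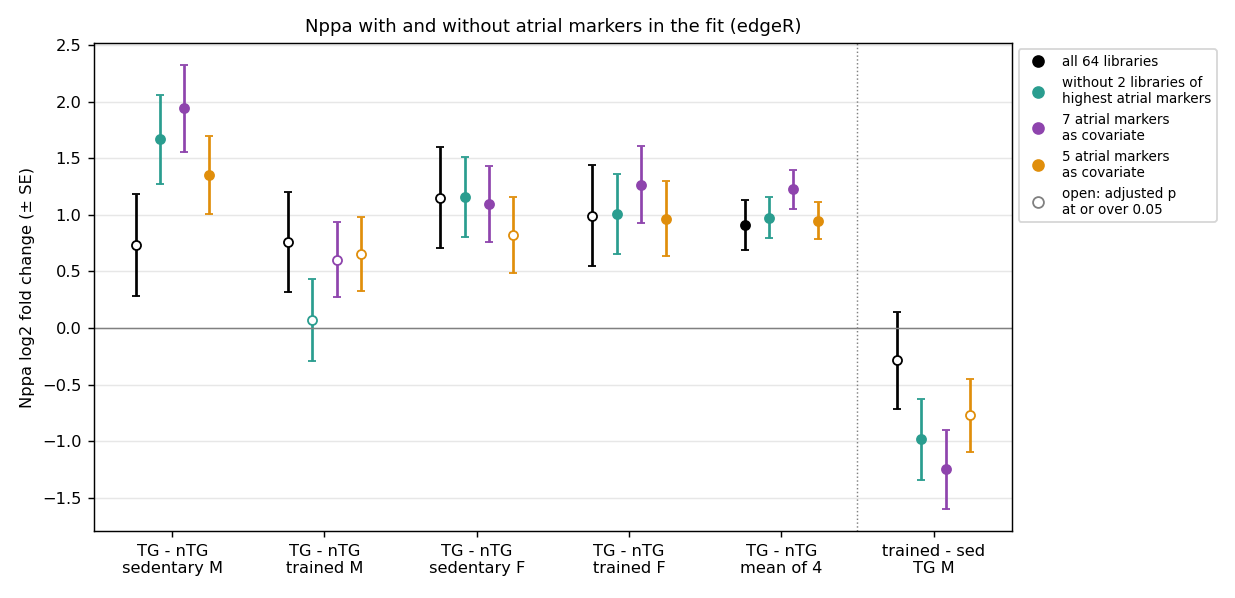
Log2 fold change of Nppa ± SE between TG and nTG hearts in each stratum and over the mean of the 4, and between trained and sedentary TG males (right of the dotted line), in 4 edgeR fits: all 64 libraries, without the 2 libraries of highest atrial markers, and with 7 or 5 atrial markers as covariate. Filled points were called; the mean over strata is filled in all 4 fits, trained males in none.

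Nppb was higher in TG hearts over the 4 strata by 0.30 ± 0.12 (1.23-fold), just under the threshold (edgeR adjusted p = 0.0492). The call was lost with DESeq2 (adjusted p = 0.0536), without the 2 libraries highest in atrial markers (edgeR adjusted p = 0.0905), with the 5 markers as covariate (edgeR adjusted p = 0.0579), with a replicate block (edgeR adjusted p = 0.0736) and in 37 of 64 fits that left out 1 library each, which gave edgeR adjusted p-values from 0.0236 to 0.0913, the last without trained TG male replicate 4. In sedentary males, Nppb was at 56.2 to 87.4 CPM (median 78.9) in nTG and at 57.5 to 188 CPM (median 121) in TG hearts. There 6 of 9 TG libraries exceeded every nTG library and the other 3, at 57.5, 60.1 and 74.9 CPM, lay within the nTG range. The difference was 0.53 ± 0.25 (edgeR adjusted p = 0.123). In trained males the medians were 63.0 CPM in nTG and 71.2 CPM in TG hearts, in sedentary females 65.3 and 77.4 CPM, and in trained females 56.4 and 78.1 CPM. The differences there were 0.13 ± 0.24, 0.15 ± 0.25 and 0.38 ± 0.25, none of them called. Within groups, Nppa and Nppb correlated at r = 0.38 over 64 libraries.

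Corin (chr5:72300025-72504473, reverse strand), the transmembrane serine protease that activates pro-ANP, fell in TG hearts. The mean over the strata was -0.30 ± 0.04 (0.814-fold, edgeR adjusted p = 2.10e-08). In sedentary males, nTG hearts were at 189 to 288 CPM (median 222) and TG hearts at 173 to 209 CPM (median 180), so that all 9 TG libraries lay below the nTG median and 5 below every nTG library. This change was -0.30 ± 0.08 (edgeR adjusted p = 0.00501). In sedentary females, the ranges were 179 to 288 CPM (median 250) in nTG and 169 to 258 CPM (median 197) in TG hearts, a change of -0.32 ± 0.08 (edgeR adjusted p = 0.0112), with 7 of 8 TG libraries below the nTG median. In trained females the groups did not overlap: nTG hearts were at 233 to 334 CPM (median 260) and TG hearts at 197 to 223 CPM (median 202), a change of -0.41 ± 0.08 (edgeR adjusted p = 0.000508). In trained males the ranges were 193 to 259 CPM (median 242) and 177 to 249 CPM (median 213), and the difference of -0.16 ± 0.08 was not called (edgeR adjusted p = 0.179). The 3 calls in single strata and that over the mean held in every fit that left out 1 library.

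Furin (chr7:80388585-80405436, reverse strand), the proprotein convertase that cleaves pro-BNP among many precursors, fell in trained TG hearts of both sexes. In trained males, nTG hearts were at 200.3 to 244 CPM (median 223) and TG hearts at 176 to 202 CPM (median 192). Of the 8 TG libraries 7 lay below every nTG library, and the change was -0.24 ± 0.05 (edgeR adjusted p = 0.00116). In trained females the groups did not overlap, with 219 to 282 CPM (median 229) in nTG and 184 to 214 CPM (median 202) in TG hearts, a change of -0.25 ± 0.05 (edgeR adjusted p = 0.000863). The sedentary differences were -0.12 ± 0.05 in males and -0.10 ± 0.05 in females and were not called (edgeR adjusted p = 0.108 and 0.318). That in males was called without sedentary nTG male replicate 6 (-0.15, edgeR adjusted p = 0.0398) and with limma (-0.13, limma adjusted p = 0.0372). The genotype-by-training differences of Furin were -0.12 ± 0.07 in males and -0.15 ± 0.08 in females and were not called either, so the trained and sedentary effects are not shown to differ. The mean over the strata was -0.18 ± 0.03 (0.885-fold, edgeR adjusted p = 1.60e-07).

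**Figure D4:**
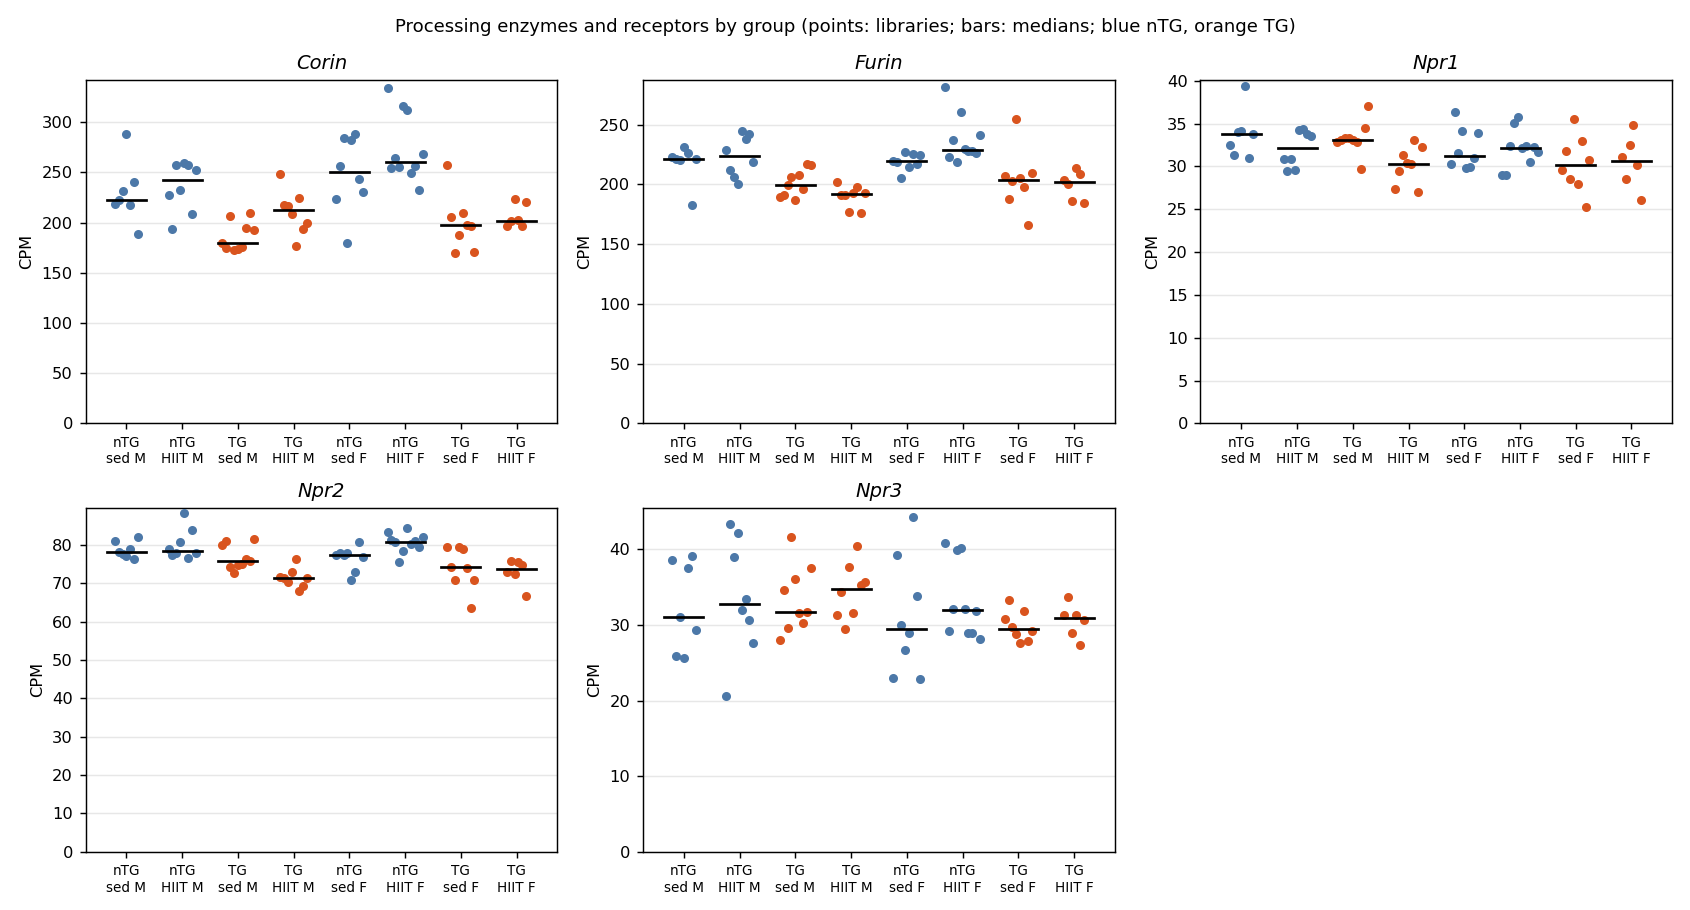
Corin, Furin, Npr1, Npr2 and Npr3 in CPM by group, on axes that start at 0 (nTG blue, TG orange; sed, sedentary; HIIT, trained; M, male; F, female); each point is 1 library and each bar a group median. The TG points of Corin and Furin do not overlap the nTG points in trained females, and those of Npr2 do not in trained males. The share of all genes that separate in this way is not given here.

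Npr2 (chr4:43631935-43651244, forward strand), the receptor of C-type natriuretic peptide, fell by little but with a small spread. In trained males, TG hearts at 68.0 to 76.5 CPM (median 71.4) lay wholly below nTG hearts at 76.6 to 88.4 CPM (median 78.5), a change of -0.17 ± 0.03 (edgeR adjusted p = 0.00048). In trained females TG hearts were at 66.8 to 75.9 CPM (median 73.9) and nTG hearts at 75.6 to 84.3 CPM (median 80.8), a change of -0.14 ± 0.04 (edgeR adjusted p = 0.0043), with 4 of 6 TG libraries below every nTG library. The sedentary differences were -0.03 ± 0.04 in males and -0.05 ± 0.03 in females and were not called. The mean over the strata was -0.10 ± 0.02 (0.934-fold, edgeR adjusted p = 5.32e-06).

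Npr1 (chr3:90450591-90465866, reverse strand), the ANP and BNP receptor, had group medians between 30.2 and 33.8 CPM, and its mean difference between genotypes was -0.07 ± 0.03, close to the threshold and not called (edgeR adjusted p = 0.0595). It was called in 10 of the 64 fits that left out 1 library. Npr3 (chr15:11839896-11907287, reverse strand), the clearance receptor, had group medians between 29.5 and 34.8 CPM and was called in none of the 19 comparisons. Its mean difference was -0.02 ± 0.06 (95% interval from -0.14 to 0.09 on the log2 scale).

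**Figure D5:**
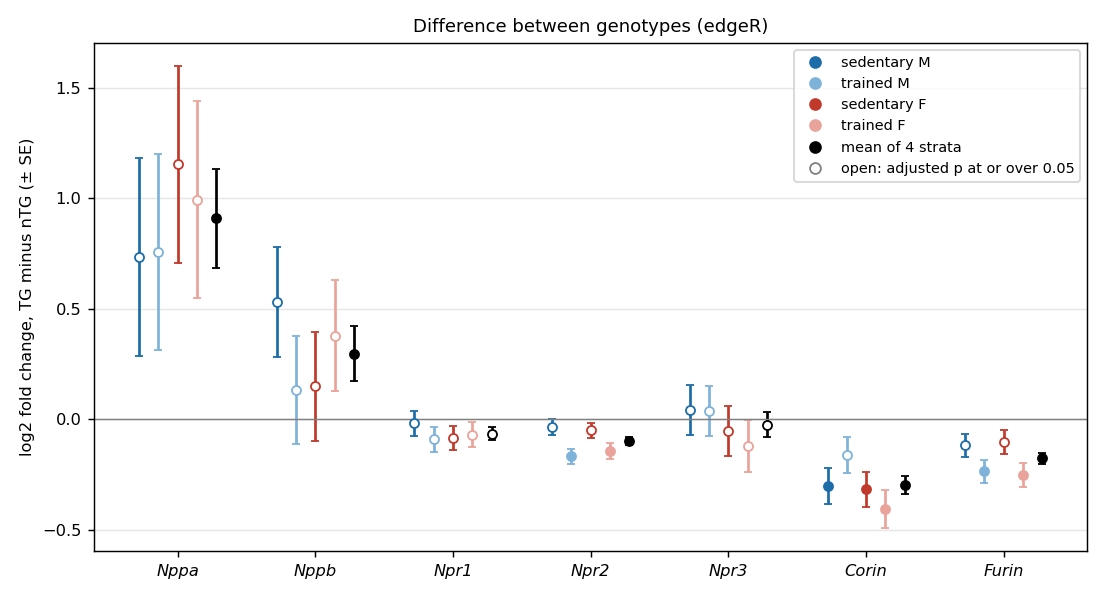
Log2 fold change (TG minus nTG) ± SE of the 7 genes in each of the 4 strata (coloured) and over their mean (black), from edgeR; filled points have an adjusted p under 0.05. All Nppa and Nppb points lie above 0 and all Corin and Furin points below it, and Npr3 lies around 0.

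Set against all genes, 1 of the 7 members was called between genotypes in sedentary males (Corin), where 20.6% of the 16913 genes were called. In trained males 2 were called (Npr2 and Furin) against 14% of all genes, in sedentary females 1 (Corin) against 4.37%, and in trained females 3 (Corin, Npr2 and Furin) against 14.8%. Over the mean of the strata 5 of 7 were called, 2 higher and 3 lower, against 39% of all genes. The 4 single-stratum comparisons use different libraries. The share of all genes whose groups did not overlap is not given here. The separate groups of Corin, Furin and Npr2 are therefore descriptions only.

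Other cell types moved with genotype beside these genes. Over the mean of the strata, 5 of 5 fibroblast markers rose (median 0.41) and 5 of 5 macrophage markers rose (median 0.41). Ventricular muscle markers fell in 6 of 7 cases (median -0.15). Of 6 red blood cell markers 3 fell (Hba-a1 at -0.42, Hba-a2 at -0.41 and Alas2 at -0.38), of which Alas2 kept its call in 24 of 64 fits that left out 1 library. This mean joins strata of opposite sign: in sedentary males, where Corin was called, all 6 had positive values, from 0.54 (Hba-a1) to 1.84 (Slc4a1, the 1 called, edgeR adjusted p = 0.0171). Of 5 endothelial markers 2 fell (Tek and Cdh5, both at -0.07). None of 5 smooth muscle and pericyte markers was called by edgeR, 1 of them (Myh11) having an unadjusted p under 0.05. In trained males, where Npr2 and Furin were called, 5 of 6 red blood cell markers fell, by 1.09 to 1.24 on the log2 scale, and their summed level was 573 to 1114 CPM in nTG and 260 to 555 CPM in TG hearts. The median of all genes was 0.01. Summed fibroblast markers were at 502 to 1027 CPM in nTG and at 635 to 1307 CPM in TG libraries. Defining atrial markers were near 0 in some libraries of either genotype. The part of these shifts in the values of Nppa, Nppb, Corin, Furin and Npr2 was not tested beyond the fits with atrial markers, and in bulk tissue fewer cells of a type and less RNA per cell cannot be told apart.

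With edgeR, training changed 1 member. In TG males, where 18% of all genes were called, Npr2 fell from 72.6 to 81.6 CPM (median 76.0) in sedentary to 68.0 to 76.5 CPM (median 71.4) in trained hearts, by 0.11 on the log2 scale (SE 0.03, edgeR adjusted p = 0.0237). Of the 8 trained libraries 6 lay below every sedentary one. The call was lost without sedentary TG male replicate 2 (edgeR adjusted p = 0.0556) and without trained TG male replicate 6 (0.0514) or 7 (0.0564). The genotype-by-training difference of Npr2 in males was -0.13 ± 0.05 (edgeR adjusted p = 0.212). In the same comparison all 6 red blood cell markers fell, by 1.34 to 3.02 on the log2 scale, and summed blood markers were at 291 to 4626 CPM in sedentary and at 260 to 555 CPM in trained TG males. Also lower were 3 of 5 macrophage markers (Cd68 by 0.48, C1qa by 0.37 and Csf1r by 0.30), Col1a1 of 5 fibroblast markers (called in 33 of 64 fits that left out 1 library), Cdh5 of 5 endothelial markers and Pdgfrb of 5 smooth muscle and pericyte markers. The part of these cell types in the Npr2 value was not tested.

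The other members' values in TG males were lower after training for both peptide genes and Npr1. None was called in the edgeR fit of all libraries with TMM and no covariate. Corin was higher, at 0.18 ± 0.08 (edgeR adjusted p = 0.109), with 7 of 8 trained libraries above the sedentary median and 4 above every sedentary one. At an unadjusted edgeR p under 0.05 the members numbered 4 (Npr2, Npr1, Corin and Nppb). Nppa medians were 174 CPM in sedentary and 86.5 CPM in trained hearts, and 7 of 8 trained libraries lay below the sedentary median. The fitted difference was -0.28 ± 0.43 (edgeR adjusted p = 0.697). Without the 2 libraries highest in atrial markers it was -0.98 ± 0.36 (edgeR adjusted p = 0.0381), with 7 markers as covariate -1.25 ± 0.35 (edgeR adjusted p = 0.00736) and with the 5 markers -0.77 ± 0.32, not called (edgeR adjusted p = 0.0794). Kcnj3, one of the 7 markers but not of the 5, was itself called higher in trained TG males (0.46, edgeR adjusted p = 0.000594), so the covariate of 7 markers moves with this comparison. For Nppb, medians were 121 and 71.2 CPM and the difference was -0.48 ± 0.24 (edgeR adjusted p = 0.151). Leaving out trained TG male replicate 4 alone gave -0.70 for Nppb (edgeR adjusted p = 0.0264), and limma called it on all libraries (-0.65, limma adjusted p = 0.0219). Npr1 medians were 33.1 and 30.3 CPM, a difference of -0.14 ± 0.05 (edgeR adjusted p = 0.0568), and it was called in 17 of the 64 fits that left out 1 library, by DESeq2 (adjusted p = 0.037), by limma (adjusted p = 0.0403), with median-of-ratios size factors (edgeR adjusted p = 0.0489) and with only the male groups (edgeR adjusted p = 0.0304). This comparison shares its sedentary TG libraries with the genotype comparison in sedentary males, so their opposite signs are not independent of each other.

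In the other training comparisons edgeR, DESeq2 and limma each called 0 of the 7 members. All genes called were 0% in nTG males, 0.148% in nTG females and 0% in TG females, and at an unadjusted edgeR p under 0.05 they numbered 999, 2406 and 606. DESeq2 called 4, 131 and 0 genes and limma 1, 100 and 3. At an unadjusted edgeR p under 0.05 the members numbered 0, 2 and 0. The 2 in nTG females were Furin, at 0.12 ± 0.05 in trained relative to sedentary hearts (edgeR adjusted p = 0.267, with 7 of 10 trained libraries above every sedentary one), and Npr2, at 0.08 ± 0.03 (edgeR adjusted p = 0.279, with 5 of 10). The trained nTG females are also the libraries against which Furin and Npr2 were called lower in trained TG females. For Nppa, medians in nTG males were 55.5 CPM in sedentary and 70.6 CPM in trained hearts, in nTG females 61.0 and 55.9 CPM, and in TG females 131 and 117 CPM. The intervals for Nppa were wide: the training difference in TG females was -0.06, with a 95% interval from -0.99 to 0.87 on the log2 scale. For Corin in TG females it was 0.05, with an interval from -0.12 to 0.22.

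No difference of effects was called for a member by edgeR, DESeq2 or limma. Genotype by training, genotype by sex and training by sex each had 0% of all genes called in both of their comparisons, with 910 to 3063 genes at an unadjusted p under 0.05. DESeq2 called 0 to 223 genes in these 6 comparisons and limma 0 to 927. At an unadjusted edgeR p under 0.05 there was 1 member for genotype by training in males (Npr2) and 1 for genotype by sex in trained mice (Corin). The genotype-by-training difference of Nppa was 0.02 ± 0.62 in males and -0.16 ± 0.63 in females. Between the sexes also 0 members were called by edgeR, DESeq2 or limma, against 2.22% of all genes in sedentary nTG, 2.4% in trained nTG, 3.83% in sedentary TG and 2.29% in trained TG hearts. The unadjusted members numbered 0, 1, 2 and 0. The 1 in trained nTG hearts was Corin, higher in females by 0.22 ± 0.08 (edgeR adjusted p = 0.121). The 2 in sedentary TG hearts were Nppb, at -0.55 ± 0.24 in females relative to males (edgeR adjusted p = 0.191), and Npr1, at -0.14 ± 0.05 (edgeR adjusted p = 0.152).

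Genes around the peptide system were followed from lists, over the mean genotype difference, in which 39% of all genes were called (3128 higher and 3475 lower of 16913). Among the processing enzymes, Pcsk6, a convertase that activates corin, rose by 0.09 ± 0.03 while Corin and Furin fell, and Pcsk5 and Pcsk7 were not called. Of 4 measured clearance enzymes, Ece1 (endothelin-converting enzyme) fell by 0.11 on the log2 scale, and neprilysin (Mme), insulin-degrading enzyme (Ide) and Dpp4 were not called. Of 13 genes of cyclic GMP synthesis and action, 3 rose and 3 fell, a share close to that of all genes. Among the phosphodiesterases, Pde3b was at 0.39 ± 0.05 and Pde1a at 0.31 ± 0.05, while Pde1c was at -0.30 ± 0.05, Pde3a at -0.27 ± 0.04 and Pde2a at -0.14 ± 0.04. Prkg1, the cyclic GMP-dependent protein kinase, rose by 0.21 ± 0.04. The median of this list was 0.02, against 0.01 for all genes.

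Of 12 transcription factors known to act on the peptide genes, 4 fell and 0 rose, a smaller share than the 39% of all genes, so the count is not a result about these factors. Myocd (myocardin) was at -0.30 ± 0.03, Tbx5 at -0.20 ± 0.05, Hand2 at -0.19 ± 0.05 and Gata4 at -0.12 ± 0.03, each called by edgeR. Nkx2-5, Gata6, Mef2a, Mef2c, Srf, Tbx20, Hey2 and Nfatc4 were not called. Among neighbours on chromosome 4, Agtrap (-0.19 ± 0.02) and Mfn2 (-0.17 ± 0.02) fell, and Clcn6, Plod1, Miip and 2510039O18Rik were not called. Of 7 measured genes of the foetal and hypertrophic programme, 5 rose, with Myh7 (slow myosin heavy chain) at 1.06 ± 0.18, Acta1 (skeletal actin) at 0.93 ± 0.17, Ankrd1 at 0.51 ± 0.10 and Xirp2 at 0.29 ± 0.05. The median of that list was 0.29, and Nppa, at 0.91, lay close to Acta1.

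Likeness was measured as Pearson's r of deviations from the group means over the 64 libraries, as a description. The gene most like Nppa was Pam (r = 0.88), the peptide-amidating enzyme that is a major protein of atrial granules, followed by Podn (0.81), Slc24a2 (0.79), Postn (0.76) and Gpx3 (0.75). For Nppb the leading genes were Tnfrsf12a (0.79), Mical2 (0.77), Nuak1 (0.72), Rcan1 (0.72) and Abra (0.69), none of them among those of Nppa. Corin was most like Klhl13 (0.78) and Cenpf (0.77), Furin most like Kcnk3 (0.79), Kcng2 (0.78) and Nkx2-5 (0.78), and Npr2 most like Dmpk (0.71) and Pnpla2 (0.70). Tnnt2 within the 31 TG libraries correlated with Nppa at r = -0.39 and with Nppb at -0.32. Values of like size were found for Npr3 (-0.35) and Furin (0.35), and smaller ones for Corin (-0.16), Npr2 (-0.14) and Npr1 (-0.01).

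Gm13054, an antisense gene at chr4:148001091-148004014 on the reverse strand, overlaps Nppa over 989 bases. It had 1 to 54 counts per library, and over the strata it was higher in TG hearts by 0.66 ± 0.21 (edgeR adjusted p = 0.00741). Within groups it followed Nppa at r = 0.71. The strand setting of the authors' counting is not given in the sources used here, so reads of Gm13054 and of Nppa cannot be told apart where they overlap. In the lncRNA table the same gene had 0 to 8 counts per library.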

How the data were processed

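The deposited gene table holds counts per Ensembl gene, and the deposited lncRNA table holds expected counts (estimated by the authors). The lncRNA counts were rounded to whole numbers and used only to pair columns and for Gm13054. Per the submitters' processing notes, cutadapt 2.3, FastQC 0.11.8, MultiQC 1.7, STAR 2.7.8a and RSEM 1.3.3 and the build GRCm38 (mm10) were used. Their settings are not given in the sources used here. Symbols and positions came from GENCODE M21 (16879 of 16913 genes).

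Columns were paired on log2 CPM (pseudocount 0.5) of autosomal transcripts whose mean count reached 20, and the pairing was tested on simulated data. Counts were tested in 1 model of 8 groups with edgeR 4.0.16 (TMM, quasi-likelihood F test, threshold 0.05); filterByExpr kept all genes. SE is the fold change divided by the root of F. Likeness used log2 CPM with a prior count of 2 and genes with a mean of at least 50 counts. Spread between mice and counting error were not separated. Genes named are the 7 members, any gene of the lists, and up to 5 genes of highest likeness for Nppa, Nppb and members called in 2 or more comparisons. Members and lists were chosen with earlier results of these data known. Alternatives were DESeq2 1.42.0, limma 3.58.1, median-of-ratios size factors, no filter, the 4 groups of each sex alone, a replicate block, columns by name and each library left out. The atrial covariates (7 or 5 markers) and the fit without the 2 libraries of highest atrial markers were chosen after seeing the data. The submitters state 7 to 9 samples per group, where the labels give 6 to 10. One gene of the lists is not reported here.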

Additional observations from a re-analysis of the deposited data

Results flagged for a closer look

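In 56 groups of values (7 genes in 8 groups), 6 values, from 5 libraries, stood apart from the rest of their group by more than the 95% critical gap for its size, where about 1 group in 20 (2.8 of 56) would by chance. Nppa was 363 CPM in sedentary nTG male replicate 5, where the others had 28.2 to 63.3 CPM, and 472 CPM in trained TG male replicate 4, where the others had 51.6 to 119 CPM. These are the libraries with the highest summed atrial markers. Nppa was also 140 CPM in trained nTG female replicate 5, whose summed atrial markers were 249 CPM and where the others had 33.5 to 90.2 CPM. Npr1 was 39.4 CPM in sedentary nTG male replicate 5 (others 31.0 to 34.1 CPM). Corin was 258 CPM in sedentary TG female replicate 1 (others 169 to 209 CPM). Furin was 183 CPM in sedentary nTG male replicate 6 (others 220.4 to 231 CPM), and without that library the Furin difference between genotypes in sedentary males was called (edgeR adjusted p = 0.0398).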

How the results depend on the processing

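With gene columns taken by name, 0 members were called in the genotype comparisons and in the training of TG males, and 4 values changed sign: Npr2 in trained males 0.0028, Furin there 0.10, Corin in trained females 0.10 and Furin there 0.020. Among sedentary males, 3 members were called with limma and 2 with either atrial covariate or without the 2 libraries of highest atrial markers. Among sedentary females, 2 were called with limma, with only the 4 groups of the sex, with 7 markers as covariate and without the 2 libraries. For training in TG males, 2 were called with DESeq2, median-of-ratios factors, only the 4 groups of the sex and the 5-marker covariate, 3 with limma and the 7-marker covariate, and 4 without the 2 libraries. In the edgeR fit without these changes, 1 member was called in each of these comparisons, against 20.6%, 4.37% and 18% of all genes. Counts of all genes under the alternatives follow below only where they moved by over 1.5 times. The member counts alone are therefore not results about the members. Leaving out 1 library gave 1 to 2 members in sedentary males, 0 to 3 for training in TG males and 0 to 1 for the sexes in sedentary TG mice. Replicate numbers did not pair the libraries (r from -0.17 to 0.20), and the replicate block ended the call of Nppb (0.27, adjusted p = 0.0736) and called Npr1 (-0.07, adjusted p = 0.0406) over the strata. The cause of these changes was not tested. Of all genes, the counts that moved by over 1.5 times were these. For the sexes, edgeR called 387 in trained TG mice, against 593 with DESeq2, 2105 with limma, 966 and 590 with the 7 and 5 markers and 1050 without the 2 libraries; 406 in trained nTG mice, against 770 with limma and 633 and 660 with the markers; and 375 in sedentary nTG mice, against 812, 676 and 637 in the added fits. For genotype in sedentary females it called 739, against 1269 with limma. For training in nTG females it called 25, against 131 with DESeq2, 100 with limma, 13 with median-of-ratios factors, 0 with the 4 groups of the sex, 3 with the block and 47 and 41 with the markers. Training by sex in TG mice went from 0 to 223 with DESeq2, 927 with limma, 772 and 100 with the markers and 536 without the 2 libraries, and genotype by training in males from 0 to 13, 300 and, without the 2 libraries, 413. By name, training gave 132 in nTG males and 42 in nTG females, the genotype comparisons and training in TG males 0, and the sexes 0 or 1. Leaving out 1 library gave 1702 to 4061 for training in TG males (lowest without trained replicate 7), 140 to 1082 for the sexes in trained TG mice (without trained TG female replicates 5 and 6), 284 to 835 and 204 to 513 for the sexes in sedentary TG and nTG mice, 0 to 62 for training in nTG females and 0 to 904 for training by sex in TG mice. The filter changed nothing, since it removed no gene. The lowest count of a member in any library was 861; the part of counting error in the spread was not tested.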
